A study of Homo sapiens with 12 samples.

Results

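Single-window naive gaps are 10 kb stretches that were missing from the naive list of lamina-associated domains (LADs), stood between naive LADs on both sides, and lay inside a LAD of the primed list. They were selected on the 2 LAD lists themselves, so their absence from naive LADs, their presence in primed LADs and their naive neighbours are the definition and not a result. Chromosomes 1 to 22 held 2180 such gaps among 287391 windows of 10 kb. The gaps made up 1.76% of the 124212 windows in primed LADs, and 2180 of the 6508 primed windows that lay outside naive LADs. A further 2148 single-window naive gaps lay outside primed LADs, of 4328 in all.

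The data came from H9, an established human embryonic stem cell line, with no genetic change or treatment named in the labels. LADs were mapped in naive H9 cells, kept in RSeT medium, and in primed H9 cells, kept in mTeSR medium. In pA-DamID an antibody to lamin B1 (LMNB1) brings a protein A fusion of the bacterial Dam methylase to the lamina, where it marks adenines in GATC sites, and untethered Dam (Dam-only) reports on how open the DNA is. The labels describe 3 LMNB1 and 3 Dam-only libraries of naive cells, and 3 LMNB1 and 3 Dam-only libraries of primed cells, and do not say whether they were separate cultures. Each state has 1 list of LAD intervals, which holds coordinates only. With 1 list per state there were no replicates to set a difference against, the depth behind a window is unknown, and no p-value is given. A window with too few reads or GATC sites to be called cannot be told apart from a window away from the lamina.

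LADs are large stretches of chromatin at the nuclear periphery that are mostly poor in genes and low in transcription. Active genes within such a stretch are known to detach locally in some cells, so that a short piece around a promoter is out of contact with the lamina while the DNA on both sides stays in contact. Promoters of broadly active genes are often rich in CpG dinucleotides, which most of the genome has lost.

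Among the gaps, 105 protein-coding genes with a strand in the RefSeq promoter table had their start. Genes without a listed strand were neither counted nor ranked. Of the 10 counted genes with the longest naive flanks, 6 are shown here by the 250 bases before their listed promoter start. They are 5 with a CpG observed-over-expected ratio of at least 0.6, and PPP1R9A, the only one of the 10 under it. Sequences are RefSeq's, GRCh38.p14, written 5′ to 3′ on the strand of the gene, with CpG dinucleotides in capitals. RAB5A, at chr3:19946847-19947096 on the plus strand, had 23 CpG sites, and RIOK2, at chr5:97183248-97183497 on the minus strand, had 11. BZW2, at chr7:16645931-16646180 on the plus strand, had 19. SMARCA5, at chr4:143513452-143513701 on the plus strand, had 20, and TET2, at chr4:105145625-105145874 on the plus strand, had 10. PPP1R9A, at chr7:94907344-94907593 on the plus strand, had 13, and its listed promoter lay 358 bases from the start of the gene body.
RAB5A: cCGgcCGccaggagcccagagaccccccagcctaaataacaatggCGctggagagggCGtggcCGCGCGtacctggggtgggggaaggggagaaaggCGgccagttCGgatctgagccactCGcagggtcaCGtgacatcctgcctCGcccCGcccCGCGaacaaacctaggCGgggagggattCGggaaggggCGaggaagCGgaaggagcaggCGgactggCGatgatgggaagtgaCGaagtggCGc
RIOK2: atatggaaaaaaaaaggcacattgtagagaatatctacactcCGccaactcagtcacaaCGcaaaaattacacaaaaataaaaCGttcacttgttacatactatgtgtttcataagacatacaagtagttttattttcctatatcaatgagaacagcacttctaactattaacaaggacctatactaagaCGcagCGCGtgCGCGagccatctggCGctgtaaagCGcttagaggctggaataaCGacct
BZW2: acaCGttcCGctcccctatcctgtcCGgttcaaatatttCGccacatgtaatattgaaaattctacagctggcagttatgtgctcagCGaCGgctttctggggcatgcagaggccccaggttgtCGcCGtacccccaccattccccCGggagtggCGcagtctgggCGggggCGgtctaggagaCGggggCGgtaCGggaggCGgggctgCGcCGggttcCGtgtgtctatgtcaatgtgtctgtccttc
SMARCA5: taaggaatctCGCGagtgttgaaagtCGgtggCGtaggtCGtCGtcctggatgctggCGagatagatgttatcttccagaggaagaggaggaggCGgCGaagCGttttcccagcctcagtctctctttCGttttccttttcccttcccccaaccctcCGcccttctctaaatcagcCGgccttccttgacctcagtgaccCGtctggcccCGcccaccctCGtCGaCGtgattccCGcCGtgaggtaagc
TET2: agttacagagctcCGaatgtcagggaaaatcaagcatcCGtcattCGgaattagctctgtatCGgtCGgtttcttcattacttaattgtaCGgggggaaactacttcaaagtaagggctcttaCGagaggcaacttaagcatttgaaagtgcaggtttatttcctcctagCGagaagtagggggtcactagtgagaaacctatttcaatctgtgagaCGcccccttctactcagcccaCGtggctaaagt
PPP1R9A: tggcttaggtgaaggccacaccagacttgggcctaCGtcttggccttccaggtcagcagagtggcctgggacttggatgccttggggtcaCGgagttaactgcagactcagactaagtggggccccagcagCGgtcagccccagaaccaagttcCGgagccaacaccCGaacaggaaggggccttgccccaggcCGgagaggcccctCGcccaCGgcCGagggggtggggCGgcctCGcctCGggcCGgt

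The genes differ in role. RAB5A is a small GTPase of early endosomes, RIOK2 an atypical kinase needed for the maturation of the small ribosomal subunit, SMARCA5 the ATPase of ISWI chromatin remodelling complexes, and TET2 an enzyme that oxidises 5-methylcytosine. BZW2 is a protein with a basic leucine zipper and W2 domains, and PPP1R9A is neurabin 1, an actin-binding scaffold. The gap at RAB5A, chr3:19940001-19950000, had 1590 kb of unbroken naive LAD on one side and 1640 kb on the other. It lay 3060 kb from the nearer edge of a primed LAD of 6730 kb. EFHB, on the minus strand, started in the same window 114 bases away from RAB5A. Of the gene bodies, 92.4% of RAB5A and 89.7% of EFHB lay in naive LADs, against 100% of both in primed LADs. In the naive list the start was missing and most of the body was present. This follows from the rule and from the long naive flanks by which the genes were named.

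Of the 10 counted genes with the longest naive flanks, most others had a similar layout. Their selection by naive flank brings this about where a gene body reaches out of its gap. The gap at RIOK2, chr5:97180001-97190000, stood between naive runs of 1510 and 1160 kb, and 85.5% of the gene lay in naive LADs. ANKMY2 and BZW2 started 427 bases apart on opposite strands in one gap, chr7:16640001-16650000, between naive runs of 670 and 690 kb. Naive LADs held 87.5% of ANKMY2 and 93.7% of BZW2. SMARCA5 had 85.6% of its body in naive LADs, and TET2 had 96.9%, with gaps at chr4:143510001-143520000 and chr4:105140001-105150000. Primed LADs covered 100% of all these bodies. The set also held PPP1R9A, with 99.3% of its body in naive LADs, and BMPER, a secreted BMP-binding protein, with 98.0%. FAM98A differed in that its gap was the edge window of its primed LAD, and its body was 40.5% in naive and 59.5% in primed LADs. The map of 4 of these loci shows naive LADs broken at the gap, as the rule asks, and primed LADs running through.

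**Figure D1:**
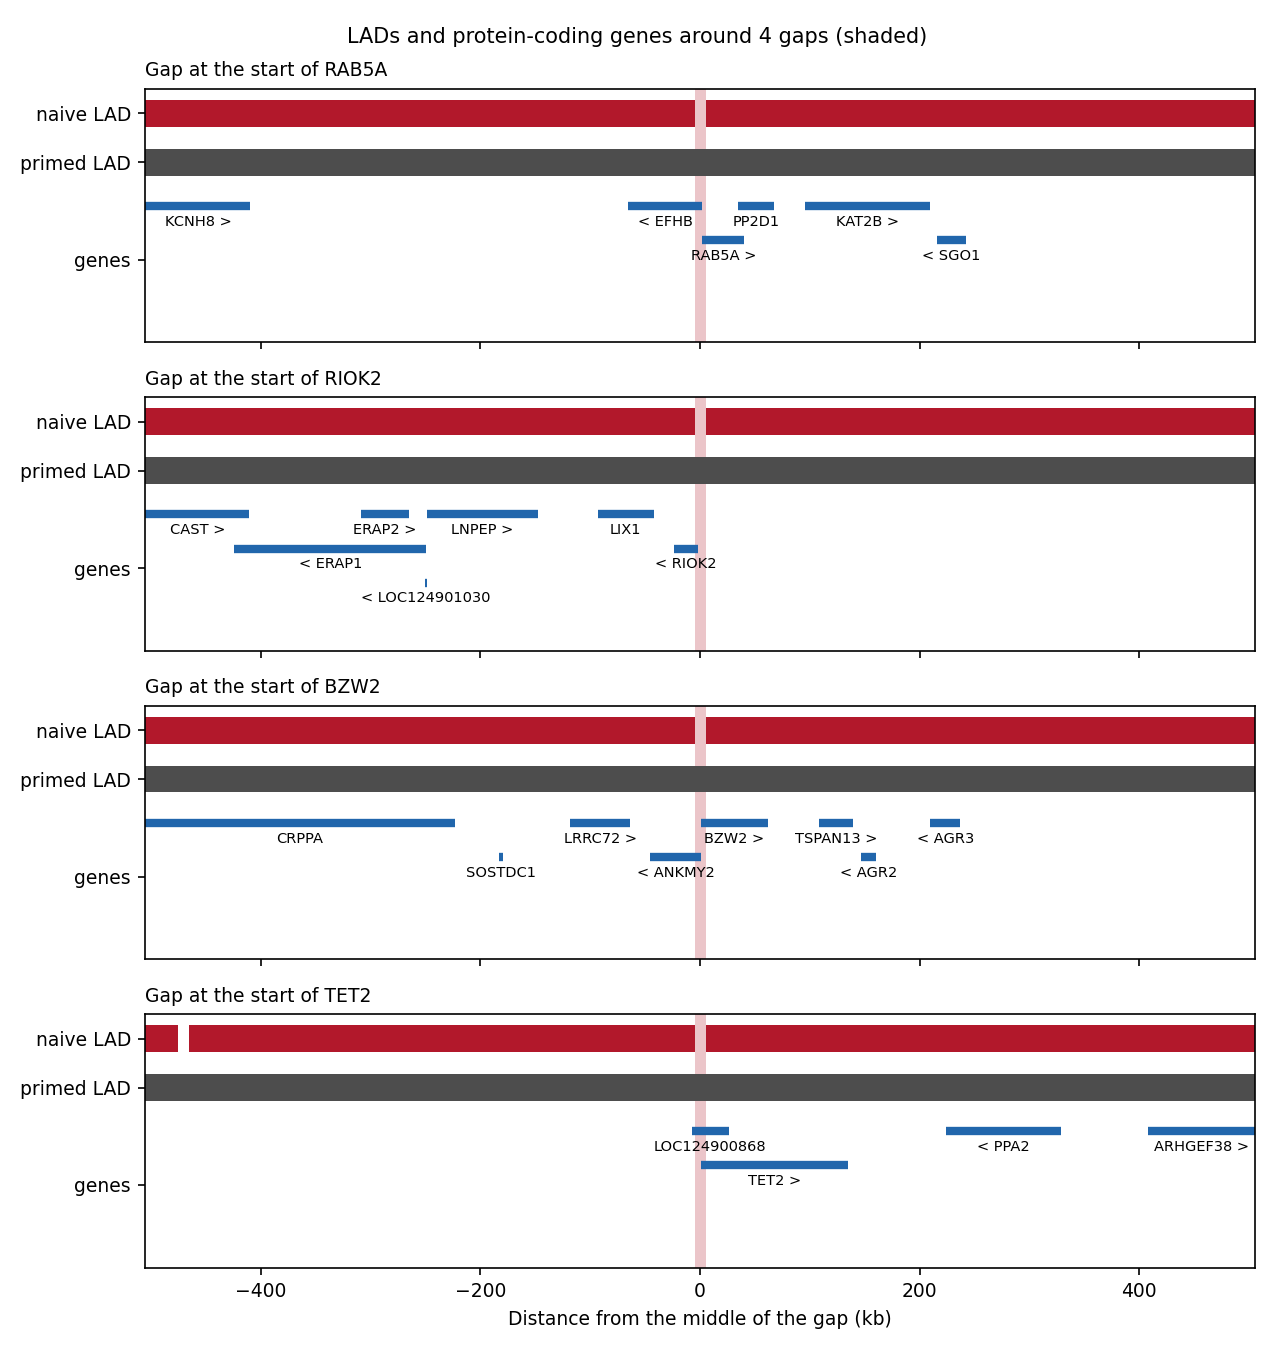
LADs (naive above primed) and protein-coding genes within 500 kb of 4 gaps, by distance in kb from the middle of the gap, which is shaded; arrowheads give the strand where the promoter table lists one. In each map the primed LAD is unbroken, and the naive LAD is interrupted at the gap; the TET2 map has a further naive interruption near its left border.

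Protein-coding gene starts were more frequent in the gaps than in windows of both LAD lists. A start lay in 92 of 2050 gaps, or 4.49% (exact binomial 95% interval 3.63% to 5.48%), against 1815 of 103806 comparison windows, or 1.75% (1.67% to 1.83%). Comparison windows are those in both lists whose neighbours on both sides are in naive LADs. Over all autosomal windows, in LADs or not, the share was 4.94%, so the gaps were near the rate of the genome. Over all windows of primed LADs the share was 2.09%, and over protein-coding genes starting in primed LADs, 105 of 2604, or 4.03%, started in a gap. These intervals take windows as independent and cover counting only, not the spread between cultures. The start was the 5′ end of the gene body, and chromosome 8, with 130 gaps, was left out because the RefSeq promoter table used for the strand has no entry there. On the other chromosomes, 68 of the 663 protein-coding genes overlapped by a gap had no entry either, and their starts were not counted.

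Single-window naive gaps outside primed LADs held a start at a similar rate, 105 of 2003 or 5.24% (4.31% to 6.31%), with an interval that overlapped that of the gaps inside primed LADs. The mirror class, single-window primed gaps inside naive LADs, held a start in 41 of 1526 windows, or 2.69% (1.93% to 3.63%). The naive gaps inside primed LADs lay above it, with intervals that only met at 3.63%. Under wider counts the order was the same, but the intervals overlapped. Any listed start of a protein-coding gene gave 5.32% (4.39% to 6.38%) against 3.74% (2.84% to 4.81%). Either end of a protein-coding gene body gave 7.94% (6.84% to 9.15%) against 6.65% (5.48% to 7.97%). Starts of all annotated genes gave 6.78% (5.73% to 7.96%) against 6.49% (5.3% to 7.84%). None of the differences was tested. The bar charts of the 4 classes show the order for starts, and show that it is not the order for gene overlap.

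**Figure D2:**
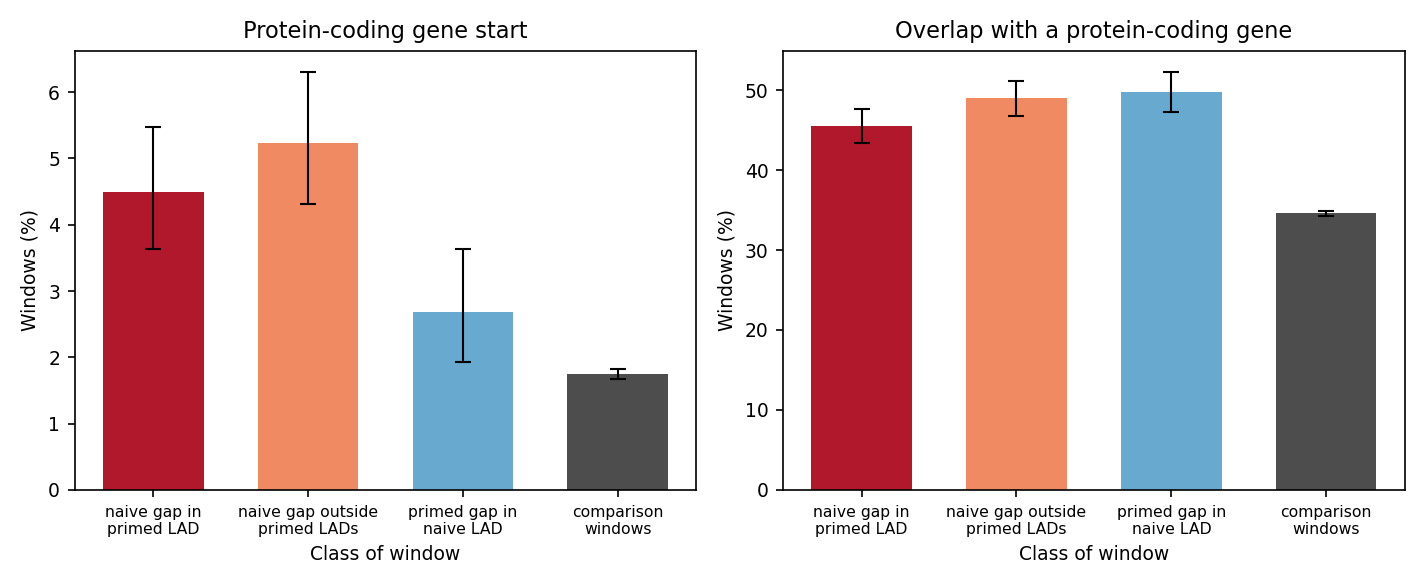
Share of windows (%) with a protein-coding gene start (left) and overlapped by a protein-coding gene (right), for naive gaps in primed LADs, naive gaps outside primed LADs, primed gaps in naive LADs and comparison windows; error bars are exact binomial 95% intervals. Gaps of each class lie above the comparison windows, with 4.49% against 1.75% for starts in the naive gaps inside primed LADs and 45.5% against 34.6% for overlap.

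Much of the excess was shared with the surroundings of the gaps. In the 10 windows on either side of a gap, 2.88% to 4.20% of windows held a start, and 3.46% of the 41000 such windows did so in all. The gap itself, at 4.49%, was above each of the 20 positions, but its interval overlapped that of every position. The contrast was larger where the naive LAD was long. In the 703 gaps with at least 100 kb of naive LAD on both sides, 32 of 659 gaps held a start, or 4.86% (3.34% to 6.79%), against 2.15% of the surrounding windows, with 1.06% to 3.34% at single positions. Neighbouring windows of a gap with short naive runs include other gaps and windows outside naive LADs, whereas those of long runs lie in naive LADs by construction. This comparison was added after the data had been seen.

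**Figure D3:**
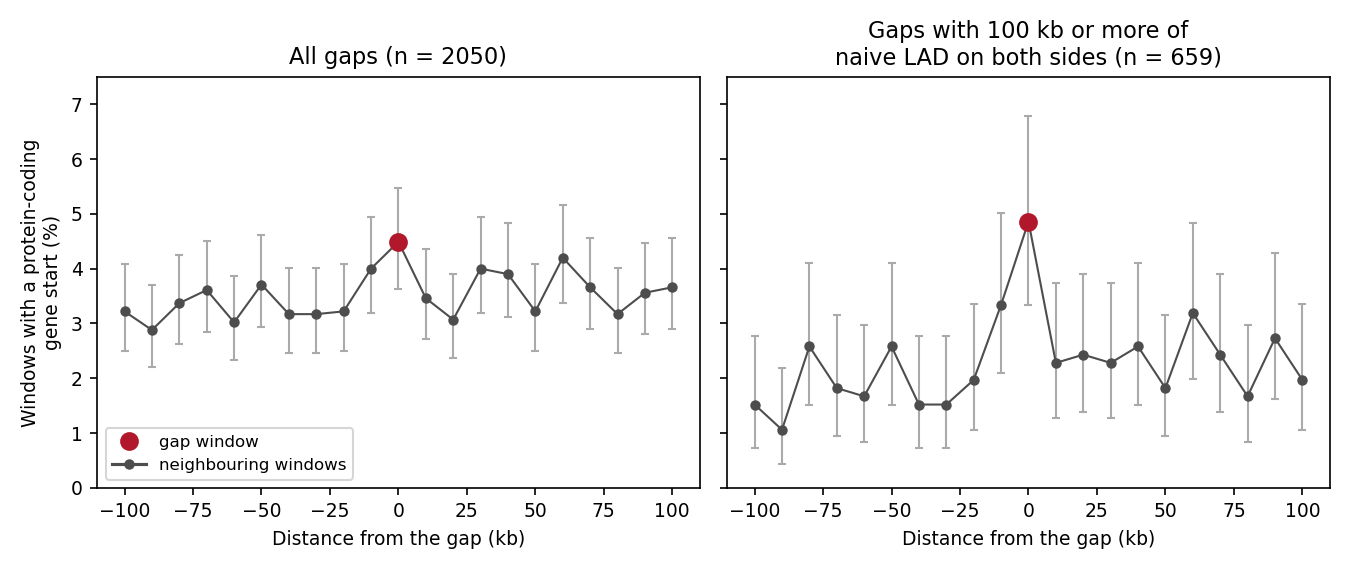
Share of windows (%) with a protein-coding gene start by distance (kb) from the gap, for all gaps (left) and for gaps with 100 kb or more of naive LAD on both sides (right); red points are the gap windows, grey points the neighbouring windows, and bars exact binomial 95% intervals. The gap is the highest point in both panels, at 4.49% and 4.86%, and the neighbours are lower on the right than on the left.

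Of the 105 genes with a listed strand that started in gaps, 96 reached beyond the gap and 9 lay wholly inside. Of the 96, 54 had at least 80% of their body in naive LADs, and 63 lay wholly in primed LADs. The naive shares follow in part from the rule, which asks for naive LAD on both sides. In 13 gaps more than 1 gene started. A divergent pair was a minus-strand start followed by a plus-strand start at most 1 kb further along, so that the bodies do not overlap. Such pairs occurred in 7 of the 92 gaps with a start, or 7.61% (3.11% to 15.1%), against 53 of 1815 comparison windows with a start, or 2.92% (2.19% to 3.8%). The intervals overlapped. Besides EFHB and RAB5A, and ANKMY2 and BZW2, the pairs were KLHL28 and TOGARAM1, ATP8B4 and SLC27A2, CCPG1 and PIERCE2, PRKRA and PJVK, and PGAP4 and RNF20, whose starts were 136 to 342 bases apart. Pairs on opposite strands with overlapping bodies were not counted, among them AZI2 and ZCWPW2, PLAA and IFT74, and RFK and GCNT1.

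Genes that started in gaps had promoters richer in CpG than genes that started in comparison windows. A CpG observed-over-expected ratio of at least 0.6, over the 300 bases from 250 before to 50 after the listed promoter start, was found in 69 of 105 promoters in gaps, or 65.7% (55.8% to 74.7%), against 924 of 1925 in comparison windows, or 48.0% (45.7% to 50.3%). Among all 15101 autosomal protein-coding promoters in the table it was 66.1%. The promoters in gaps were thus near the genome as a whole, and those of the shared LAD windows were low. Naive gaps outside primed LADs had 69.8%, and primed gaps inside naive LADs had 68.2%. Without olfactory receptor genes, whose promoters are poor in CpG, the shares were 70.1% in gaps and 51% in comparison windows. In the promoters printed above, the ratio was 0.925 for RAB5A, 1.15 for RIOK2, 0.744 for BZW2, 0.959 for SMARCA5, 0.769 for TET2 and 0.451 for PPP1R9A. Of the 105 genes, 36 had a ratio under 0.6. The promoter table's start was exactly the start of the gene body for 92 of the 105 genes and for 13150 of the 15101, and elsewhere the 300 bases lie around another listed start.

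Short motifs were searched on both strands of the same 300 bases. GGGCGG, the GC box bound by Sp1-type factors, was found in 58.1% of the promoters in gaps (48.1% to 67.7%), 39.7% of those in comparison windows and 58.7% of all promoters. CCGGAAG, an ETS-type motif, was found in 14.3% (8.22% to 22.5%), 7.06% and 14.3%. TATAAA was found in 13.3% of the promoters in gaps, 16.8% of those in comparison windows and 9.83% of all, and CCAAT in 27.6%, 37.6% and 36.1%. GCGCATGC, an NRF1-type motif, was found in 3.81%, 3.38% and 4.19%. No motif contains another. A match is a description of the letters and not a binding site.

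Bodies of protein-coding genes covered the gaps more often than the comparison windows. A protein-coding gene overlapped 991 of 2180 gaps, or 45.5% (43.4% to 47.6%), against 34.6% of comparison windows (34.3% to 34.9%). Over all autosomal windows it was 46.4%. The other classes of gap were higher, at 49% (46.8% to 51.1%) for naive gaps outside primed LADs and 49.8% (47.3% to 52.3%) for primed gaps inside naive LADs. Most of the 991 overlapped gaps lay within a gene. Of all 2180 gaps, 818, or 37.5%, were inside a body, and 173, or 7.94%, held an end of one, against 30.8% and 3.8% of comparison windows. A further 392 gaps, or 18%, overlapped only other genes, against 21.8% of comparison windows, and 797, or 36.6%, overlapped no annotated gene, against 43.6%. Long noncoding RNA genes overlapped 21.9% of gaps and 23.3% of comparison windows. The flanks of the gaps were nearly as rich as the gaps, at 41.6% to 45.4% by position and 43.5% in all. Where 100 kb or more of naive LAD lay on both sides, 40% of gaps were overlapped, against 35.1% of the surrounding windows.

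Gaps recurred in some long genes. They overlapped 717 protein-coding genes, 196 of them at 2 or more places and 16 at 5 or more. AGBL4, a carboxypeptidase that acts on tubulin, held 8 gaps in 1501 kb, and 66.2% of its body lay in naive LADs against 81.5% in primed LADs. CTNNA3, alpha-T-catenin, held 7 in 1851 kb. DPP10, an accessory protein of potassium channels, held 6 in 1403 kb, and SEMA3A, a secreted axon guidance protein, 6 in 537 kb. OR2L13, annotated over 164 kb in a cluster of olfactory receptor genes, also held 6. CTNNA3 and DPP10 were covered almost whole in both states, 93.9% and 92.9% in naive LADs against 99.8% and 100% in primed LADs. That each gap is narrow follows from the rule. A longer gene has more windows that can be gaps. Per 100 windows of the body the gaps numbered 5.3 in AGBL4, 3.76 in CTNNA3, 4.26 in DPP10, 10.9 in SEMA3A and 33.3 in OR2L13. Over all windows of primed LADs the rate was 1.76, but these genes were named for having most gaps.

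Small genes lay whole in the gaps at a low rate, 16 of 2180 gaps or 0.734% (0.420% to 1.19%), against 0.271% of comparison windows (0.241% to 0.303%). Over all autosomal windows the share was 0.918%, and in naive gaps outside primed LADs 0.931%, so the gaps were near the rate of the genome. These 16 gaps held 17 genes, of which 9 are among the 105 counted starts and the others have no listed strand. The one with the longest naive flank was HBE1, the embryonic epsilon globin gene, in chr11:5260001-5270000 with at least 490 kb of naive LAD on each side. HBE1 has no listed strand and was not ranked above, where SMARCA5 and TET2 had flanks of 470 and 460 kb. OR56B2 and OR13C9 encode olfactory receptors, and KRTAP24-1, KRTAP25-1 and KRTAP19-6, all on chromosome 21, encode hair keratin-associated proteins. FABP5, a fatty acid-binding protein, and SAP30, a subunit of Sin3 histone deacetylase complexes, lay in gaps that were edge windows of their primed LADs. LOC112268390 and LOC128031834 complete the 10 with the longest naive flanks.

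Among 21 gene lists defined by symbol, 4 had a member starting in a gap. Of 8 RAB genes starting in primed LADs, 1 did (RAB5A), of 60 solute carrier genes, 2 did (SLC9B1 and SLC27A2, of which SLC27A2 transports and activates long-chain fatty acids), and of 21 potassium channel genes, 1 did (KCNH1). Of 180 olfactory receptor genes starting in primed LADs, 8 started in a gap, or 4.44%, near the 4.03% of all protein-coding genes; OR56B2, OR13C9, OR2L13 and OR2AK2 had the longest naive flanks. Ribosomal, mitochondrial ribosomal, proteasome, respiratory chain, translation, splicing, ubiquitin and cell cycle genes made up 8 lists of widely used genes. As matched by symbol and with a listed strand, they had 36 starts in primed LADs and 0 in gaps, which at 3 counts allows a share of up to 8.33%. Matching by symbol misses genes: COXFA4, which the respiratory chain list did not take in, started in a gap. Each of these 8 lists had at least 1 start in a comparison window, inside naive LADs. This held for 1 of 2 cytosolic and 1 of 3 mitochondrial ribosomal starts in primed LADs. The genes named next were fixed by name with earlier results known, so their placement does not stand for their lists. Of the ribosomal genes among them, RPL37, RPS12 and MRPS30 lay in naive gaps of 20 kb and MRPL50 in one of 30 kb. These 4 bodies were 0% in naive and 100% in primed LADs, just outside the limit of 1 window. CGA, USP53, TBC1D23 and YTHDC1 lay in naive interruptions of 830, 140, 210 and 130 kb. MRPL44 had the opposite placement, with 100% of its body in naive LADs and 0% in primed LADs.

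The limit of 1 window sits within a range of gap widths. Of 2680 naive gaps of any width lying inside a primed LAD, 2180, or 81.3%, spanned 1 window, 312 spanned 2, 100 spanned 3 and 88 spanned 4 or more. Of the gaps of 2 windows, 15.2% held a protein-coding start, of those of 3 windows 15.9%, and of wider ones 37.3%, over 20 kb, 30 kb and 40 kb or more of sequence rather than 10 kb. On the other limit, 570 gaps had only 1 naive window on their shorter side and 451 had 200 kb or more. The start share did not order with this flank, at 4.70% for the shortest flank and 4.52% for the longest, while the share overlapped by a protein-coding gene was 52.1% and 40.4%.

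The gaps were spread over 20 of 22 autosomes, with none on chromosomes 19 and 22, where primed LADs had only 9 and 3 windows. Chromosome 4 held the most, 225. Relative to the primed LAD windows of a chromosome, chromosome 21 had 7.26 gaps per 100 windows (91 gaps), chromosome 14 had 4.51 (169 gaps) and chromosome 15 had 3.09 (60 gaps). The other chromosomes with gaps lay between 1.22 and 2.23, and the median over chromosomes was 1.60. Primed gaps inside naive LADs, per 100 naive windows, numbered 3.76 on chromosome 21, 2.80 on chromosome 20, 2.45 on chromosome 15 and 2 on chromosome 14. Of the 260 gaps on chromosomes 14 and 21, 11.9% of all, 5 held a start, or 1.92% (0.627% to 4.43%), against 4.86% (3.91% to 5.96%) of the other gaps. The intervals overlapped and the difference was not tested. Without these chromosomes the overlapped share was 48.2%. On chromosome 14 a start lay in 1.78% of gaps, against 0.879% of comparison windows. On chromosome 21 protein-coding genes overlapped 9.89% of gaps, against 22.1% of comparison windows. The share overlapped by a protein-coding gene was higher in gaps than in comparison windows on 16 of 20 chromosomes, the exceptions being 6, 16, 20 and 21. The start share was higher in gaps on 14 of 19. Chromosomes 16, 17, 18 and 20, with 101 gaps, had no counted start in a gap, which at 3 counts allows a share of up to 2.97%. Their comparison windows held starts in 0.622%, 1.27%, 1.39% and 0.812%, in that order, all under this limit. The count covers only genes with a listed strand. NOG, on chromosome 17, lay wholly in a gap but has no listed strand, so its start was not counted. On chromosome 21 the start share was lower in gaps.

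**Figure D4:**
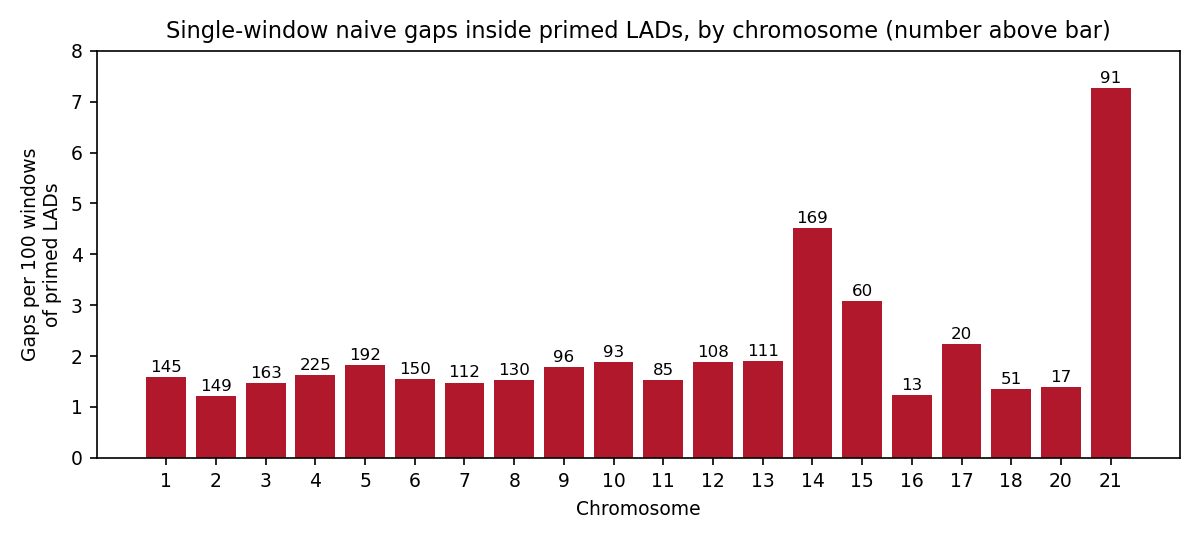
Number of gaps per 100 windows of primed LADs on each autosome with a gap; the number above a bar is the count of gaps. Chromosomes 21, 14 and 15 stand highest, at 7.26, 4.51 and 3.09, and all others lie between 1.22 and 2.23.

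Gaps lay nearer to the edges of primed LADs than windows that both lists shared. The median distance from a gap to the nearer edge was 130 kb (quartiles 20 and 590 kb), against 640 kb (250 and 1260 kb) for windows of both lists in the same primed LADs. The first or last window of the primed LAD was the gap in 365 cases, or 16.7% (15.2% to 18.4%), against 1.37% of the shared windows (1.30% to 1.45%). This contrast depended on LAD length, since short primed LADs held more gaps per window. In primed LADs of 100 kb or longer, 4.28% of gaps (3.38% to 5.34%) and 1.01% of shared windows (0.951% to 1.08%) were at the edge, and the median distances were 250 and 650 kb. At 1000 kb or more from an edge lay 16.0% of gaps and 34.2% of shared windows. Position follows in part from the rule, which asks for naive LAD on both sides but not for primed LAD there. Both neighbours lay in the same primed LAD for 1815 gaps, 1 neighbour did for 246, and for 119 the window was a whole primed LAD of 10 kb. In primed LADs of 100 kb or longer, cut into 5 parts of equal length, the gaps fell as 25.4%, 17.8%, 19%, 16.7% and 21.2% from the low to the high coordinate. The shared windows fell as 19.9%, 20.2%, 20.2%, 20.2% and 19.5%. Only the first part had an interval (23.3% to 27.5%) above those of all inner parts. That of the last part (19.3% to 23.2%) overlapped that of the middle part (17.1% to 20.9%).

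Gaps far from the edges held gene starts as well. At the edge, 6.03% of gaps held a start (3.77% to 9.08%), against 3.15% of comparison windows (2.62% to 3.76%). From 10 to 40 kb inward 2.34% of gaps and 2.40% of comparison windows held one. From 50 to 190 kb they were 5.28% (3.37% to 7.81%) and 2.14%, and from 200 to 990 kb 5.25% (3.55% to 7.46%) and 1.66%. At 1000 kb or more they were 3.03% (1.46% to 5.50%) and 1.29% (1.17% to 1.43%). The interval of the gaps lay above that of the comparison windows in 4 of the 5 distance classes, and overlapped it from 10 to 40 kb. Each of the 5 deepest gaps overlapped an annotated gene. The gap at chr13:74370001-74380000, 4.21 Mb from an edge, overlapped the noncoding LOC105370259 and the pseudogene RPL21P108. The next overlapped PTPRD, a receptor-type tyrosine phosphatase, at 3.57 Mb, MSMO1, an enzyme of cholesterol synthesis, at 3.49 Mb, and DACH1, a transcriptional regulator, at 3.32 and 3.26 Mb.

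**Figure D5:**
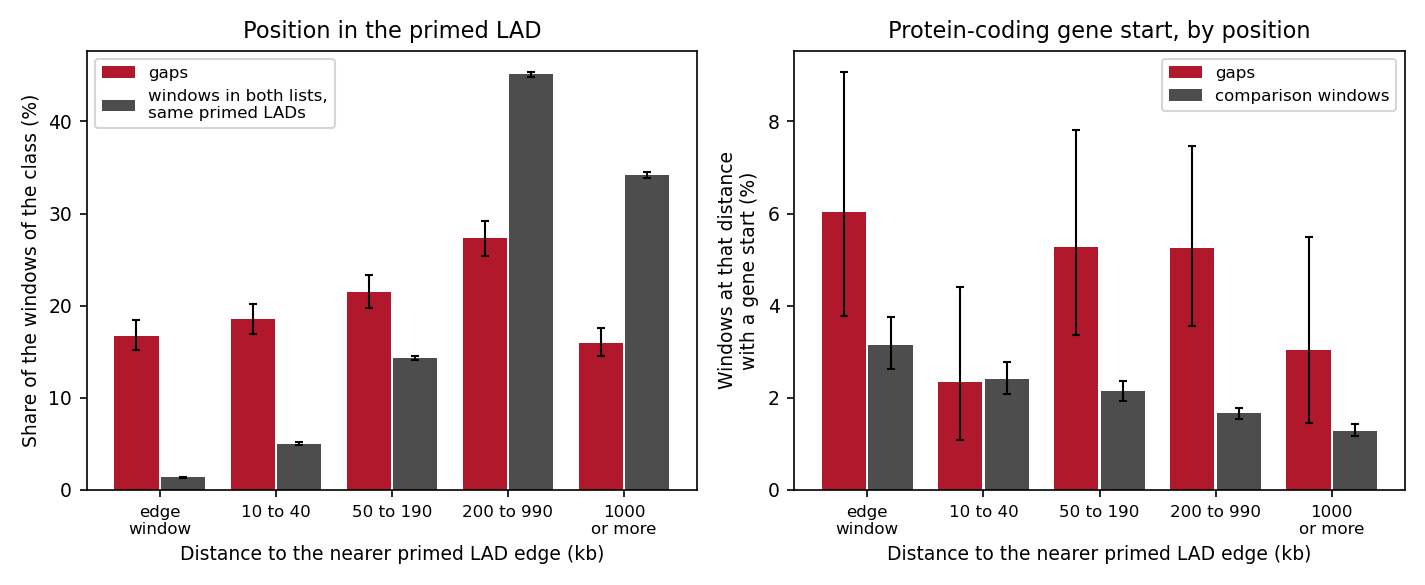
Left, share (%) of gaps and of windows of both lists in the same primed LADs by distance (kb) to the nearer edge of the primed LAD; right, share (%) of gaps and of comparison windows at that distance with a protein-coding gene start; error bars are exact binomial 95% intervals. Gaps are more frequent near the edge, with 16.7% in edge windows against 1.37%, and hold starts more often in 4 of the 5 distance classes.

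Some primed LADs held many gaps and most held none. Of 5268 autosomal primed LADs, 1005 held a gap, 616 of them exactly 1 and 20 of them 10 or more. Long LADs held gaps more often, with 281 of the 336 LADs of 1000 kb or more, or 83.6%, but had fewer per length, 1.19 per 100 windows against 4.92 in LADs of 10 kb. The most gaps, 24, lay in chr14:39230001-43380000, a LAD of 4.15 Mb with FBXO33, LRFN5 and MIA2, of which 92.8% was in naive LADs. The next were chr6:65460001-70480000 with 16, chr13:68360001-78590000 with 15, chr13:63830001-68350000 with 14 and chr10:63860001-67760000 with 13. In these 5 LADs no protein-coding gene with a listed strand started in a gap, against 4.49% of all gaps with a start. Few starts were possible, since only 3, 7, 22, 2 and 2 protein-coding genes overlapped these LADs, in that order. Neighbouring gaps of one primed LAD were a median of 150 kb apart (quartiles 50 and 440 kb, 1175 pairs). In 106 places gaps followed each other at 20 kb, with a single naive window between them, and these chains took in 226 gaps. The longest, of 4 gaps, was chr14:44940001-45010000, and one of them held the starts of KLHL28 and TOGARAM1.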

How the data were processed

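LADs of H9 cells came as 1 deposited list per state, with the start and end coordinates of each interval and no score. Per the submitters' processing notes, hg38, SICER, SAMtools 1.10 and BWA were used. Their settings and the step from a state's 6 libraries to 1 list were not given in the sources used here. The depth is unknown. Interval ends fell on multiples of 10000 bases, so each list was read as windows of 10 kb. Genes came from RefSeq, GRCh38.p14 (56756 autosomal genes, 19126 protein-coding). The gene table has no strand, so a start is the 5′ end of the gene body with the strand of the RefSeq promoter table. The 4025 protein-coding genes without an entry there, among them all of chromosome 8, were not used for starts. Shares carry exact binomial (Clopper-Pearson) 95% intervals. The limit beside a count of 0 is 3 counts of the total. Window composition was not analysed because no genome was given. The members, gene lists and naming rules were chosen with earlier results of these data known.

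Naive flank means the shorter naive run beside a gap. Named were, by longest naive flank, up to 4 members per gene list and 10 genes each starting in or lying wholly in a gap, then the 5 genes and 5 primed LADs with most gaps, the 5 deepest gaps, and a set of 9 genes fixed by name, RPL37 to YTHDC1. KLHL28, ATP8B4, CCPG1, PRKRA, PGAP4, AZI2, PLAA, RFK and their partners, COXFA4, NOG, and FBXO33, LRFN5 and MIA2, were named after their values were seen. On simulated lists, 200 of 200 planted gaps were recovered and 0 windows were called elsewhere. Alternatives changed the naive and primed run required, the gap width, the chromosomes, the gene set, the overlap and the CpG threshold. The software was pandas 2.3.3, SciPy 1.17.1 and numpy 2.4.6 under Python 3.11.15, with matplotlib 3.10.9 for the plots.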

Additional observations from a re-analysis of the deposited data

How the results depend on the processing

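No paired analysis was possible because each state has 1 list that does not keep its libraries apart, and for the same reason no library could be left out. Of 54 values under alternative settings, 32 kept within the counting interval of the reported value (counts within 1.5 times) and 22 moved. Position moved most. With at least 2 or 5 naive windows on each side, the edge share was 12.2% and 7.18%, the median distance 220 and 380 kb and the overlapped share 43.1% and 41.9%, and the stricter rule left 1045 gaps. In primed LADs of 100 kb or longer the edge share was 4.28% and the median distance 250 kb. With both neighbours also in the primed LAD these were 0% by construction and 220 kb. Gaps of 1 or 2 windows held a protein-coding start in 5.79% of cases, and counting the neighbouring windows gave 11.2%. All annotated genes gave 6.78% with a start and 63.4% overlapped. Covering at least 50% of the window gave 41.9% overlapped, and a CpG ratio of at least 0.75 gave 45.7% of promoters. Among windows of both lists with no condition on their neighbours, 1.88% held a start and 35.2% were overlapped, and among those in primed LADs with a gap 34.0% were overlapped. Of the settings chosen after seeing the data, leaving out chromosomes 14 and 21 gave 48.2% overlapped, and counting either end of any protein-coding gene body, chromosome 8 included, gave 7.94%, against 3.8% in comparison windows. The start share of single-window gaps stayed between 4.17% and 4.86% under the settings that changed only which gaps were kept. Depth per window is unknown, so a gap may also be a window with too few reads to be called.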

Other observations

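Chromosome X lies outside the rule for the gaps. On it, 340 of 7736 primed LAD windows, or 4.40 per 100, were single-window naive gaps, near the 4.51 of chromosome 14. Single-window primed gaps inside naive LADs numbered 91 of 7447 naive windows, or 1.22 per 100. Small RNA genes were few in the autosomal gaps. A miRNA gene lay in or across 8 gaps, or 0.367% (0.159% to 0.722%), against 0.217% of comparison windows, and a snoRNA gene in 3, or 0.138%, against 0.152%. Chosen after their values were seen, they include MIR99A and MIRLET7C on chromosome 21, and SNORD45A, SNORD45B and SNORD45C at the start of RABGGTB, a subunit of the enzyme that attaches lipids to Rab proteins, on chromosome 1. On chromosome 21 the most gaps of 1 primed LAD were 10, in a LAD of 600 kb at chr21:23670001-24270000, or 16.7 per 100 windows.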
